A study of Mus musculus with 12 samples.

Results

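Copy number along mouse chromosome 11 was described in 12 tumours, from all 8994 probes that the array files place on it, of 170305 probes in all. Attention lay on the interval from 15.2 to 45.1 Mb, which holds Rel and 1803 probes, against the 7191 probes on the rest of the chromosome. The interval was chosen by the measured log2 ratios of lymphomas KO1111 and KO1414, which were gained there. Within it, 2 pieces, at 20.6 to 24.6 Mb and at 28.0 to 38.6 Mb, were chosen by the ratios of KO1111, which were highest there. They are called the proximal and the distal piece. The levels of these 2 tumours in the interval are therefore description, with no test. Tumour DNA in the red dye was set against DNA of normal kidney of C57BL/6 mice in the green dye, on arrays for comparative genomic hybridisation. A positive log2 ratio means more tumour DNA than kidney DNA, and 0 is the commonest level of the autosomes of that array. Positions are in build mm9.

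All tumours came from C57BL/6 mice, one tumour per array. The carcinomas, renal cell carcinomas of mice given ferric nitrilotriacetate (Fe-NTA), came from 3 Mutyh knockouts (KO1080, KO1097, KO1134) and 1 wild type (WT1179). The malignant lymphomas came from 2 knockouts given Fe-NTA (KO1077, KO1111), 1 untreated knockout (KO1414), 3 wild types given Fe-NTA (WT1113, WT1114, WT1121) and 2 untreated wild types (WT1405, WT1420). The Fe-NTA groups began with 20 males each, given 5 intraperitoneal injections weekly over 12 weeks, with 3 mg/kg of iron in week 1 and 5 mg/kg during the other 11, and ended at around 120 weeks. The labels do not give the cell lineage of the lymphomas, and it was not checked here. The 4 arrays of slide 1 held the 4 carcinomas and no other tumour, so slide and tumour type cannot be told apart. At the Mutyh probe on chromosome 4 at 116490496 to 116490555, the 6 knockout tumours read -3.21 at the lowest, -2.70 at the median and -2.39 at the highest, and the 6 wild-type tumours -0.75, -0.069 and 0.14, so each label held. Between 99.86% and 99.94% of spots on each array were well above background in both dyes.

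Mutyh is a DNA glycosylase that removes adenine placed opposite oxidised guanine, and Fe-NTA is an iron chelate that causes oxidative damage in the kidney. Rel encodes c-Rel, a subunit of the transcription factor NF-kB that is active mainly in lymphocytes, where it acts in activation, survival and proliferation. The stretch of human chromosome 2 that carries REL, BCL11A and XPO1 is often gained in human lymphomas. An array ratio averages over all cells of the sample, so fewer cells with a gain and fewer extra copies per cell cannot be told apart.

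The probes that read Rel and those that face each other across the limits of the gains are given below, since the position of every gain rests on them. The files give each 60-base probe its position without a strand, and no exon or intron. Rel was read by 3 probes, at chr11:23648638-23648697, chr11:23654748-23654807 and chr11:23668716-23668775:
Rel probe 1: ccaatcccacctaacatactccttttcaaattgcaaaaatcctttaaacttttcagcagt
Rel probe 2: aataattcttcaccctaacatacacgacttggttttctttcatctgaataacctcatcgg
Rel probe 3: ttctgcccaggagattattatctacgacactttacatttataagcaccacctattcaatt

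The higher level of KO1111 began between probes of Aftph, a gene of vesicle traffic, at chr11:20603087-20603146 and chr11:20612335-20612394. It ended between probes of the transcript ENSMUST00000153153 at chr11:24595355-24595414 and chr11:24614746-24614805. The distal piece ran from between probes at chr11:27915836-27915895 and chr11:27956982-27957041 to between probes at chr11:38579982-38580041 and chr11:38608271-38608330, at both ends with no gene name. In each pair the outside and inside probes follow in the order of the chromosome:
Proximal piece, start, outside: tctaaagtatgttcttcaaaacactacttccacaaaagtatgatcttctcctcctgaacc
Proximal piece, start, inside: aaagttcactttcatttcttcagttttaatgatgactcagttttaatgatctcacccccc
Proximal piece, end, inside: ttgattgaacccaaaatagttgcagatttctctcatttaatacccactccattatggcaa
Proximal piece, end, outside: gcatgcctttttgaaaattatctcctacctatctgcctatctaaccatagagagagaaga
Distal piece, start, outside: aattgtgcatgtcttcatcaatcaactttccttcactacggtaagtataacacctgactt
Distal piece, start, inside: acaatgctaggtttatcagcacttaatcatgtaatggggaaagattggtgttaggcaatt
Distal piece, end, inside: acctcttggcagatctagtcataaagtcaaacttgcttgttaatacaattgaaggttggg
Distal piece, end, outside: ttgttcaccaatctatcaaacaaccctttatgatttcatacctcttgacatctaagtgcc

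The gain of KO1414 began between unnamed probes at chr11:15196523-15196582 and chr11:15233901-15233960, and fell back between probes of Sgcd, which encodes a sarcoglycan of the muscle membrane, at chr11:47178957-47179016 and chr11:47185958-47186017. A probe without a gene name at chr11:45125913-45125972, within that gain, decided how it was divided:
KO1414 start, outside: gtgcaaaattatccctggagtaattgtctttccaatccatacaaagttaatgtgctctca
KO1414 start, inside: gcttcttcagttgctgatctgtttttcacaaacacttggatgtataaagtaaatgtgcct
KO1414 end, inside: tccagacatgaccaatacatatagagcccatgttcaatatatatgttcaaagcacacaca
KO1414 end, outside: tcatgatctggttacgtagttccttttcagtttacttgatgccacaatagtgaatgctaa
Probe within the KO1414 gain: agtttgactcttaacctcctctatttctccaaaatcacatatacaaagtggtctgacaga

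Chromosome 11 was cut into segments of even level, and a segment with a mean of at least 0.25 over at least 5 probes was called a gain. Gains were called in 3 of 12 tumours, all of them lymphomas: KO1111, KO1414 and WT1405. In KO1111 they took 11.3% of the chromosome's probes, against 0.646% of all autosomal probes of that tumour. In KO1414 they took 21.9%, against 1.23%, and in WT1405 the whole chromosome, against 20.1%. Since KO1111 and KO1414 had served to choose the interval, the first pair of counts supports nothing. At this limit chromosome 11 held 97.8% of all gained probes of KO1111 and 98.8% of those of KO1414, but 27.7% of those of WT1405. These shares depend on the limit: at 0.15 they were 9.73% in KO1111, 23.8% in KO1414 and 14.8% in WT1405. In the other 9 tumours 0 probes of chromosome 11 lay in a gain. Over all their autosomes the carcinomas had gained shares of 0.0142% (KO1080), 0.0471% (KO1097), 0.396% (KO1134) and 5.6% (WT1179). It was 0.0142% in KO1077, 8.81% in WT1113, 8.67% in WT1114, 3.85% in WT1121 and 0.0142% in WT1420. No loss was called on chromosome 11 in any of the 12 tumours.

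**Figure D1:**
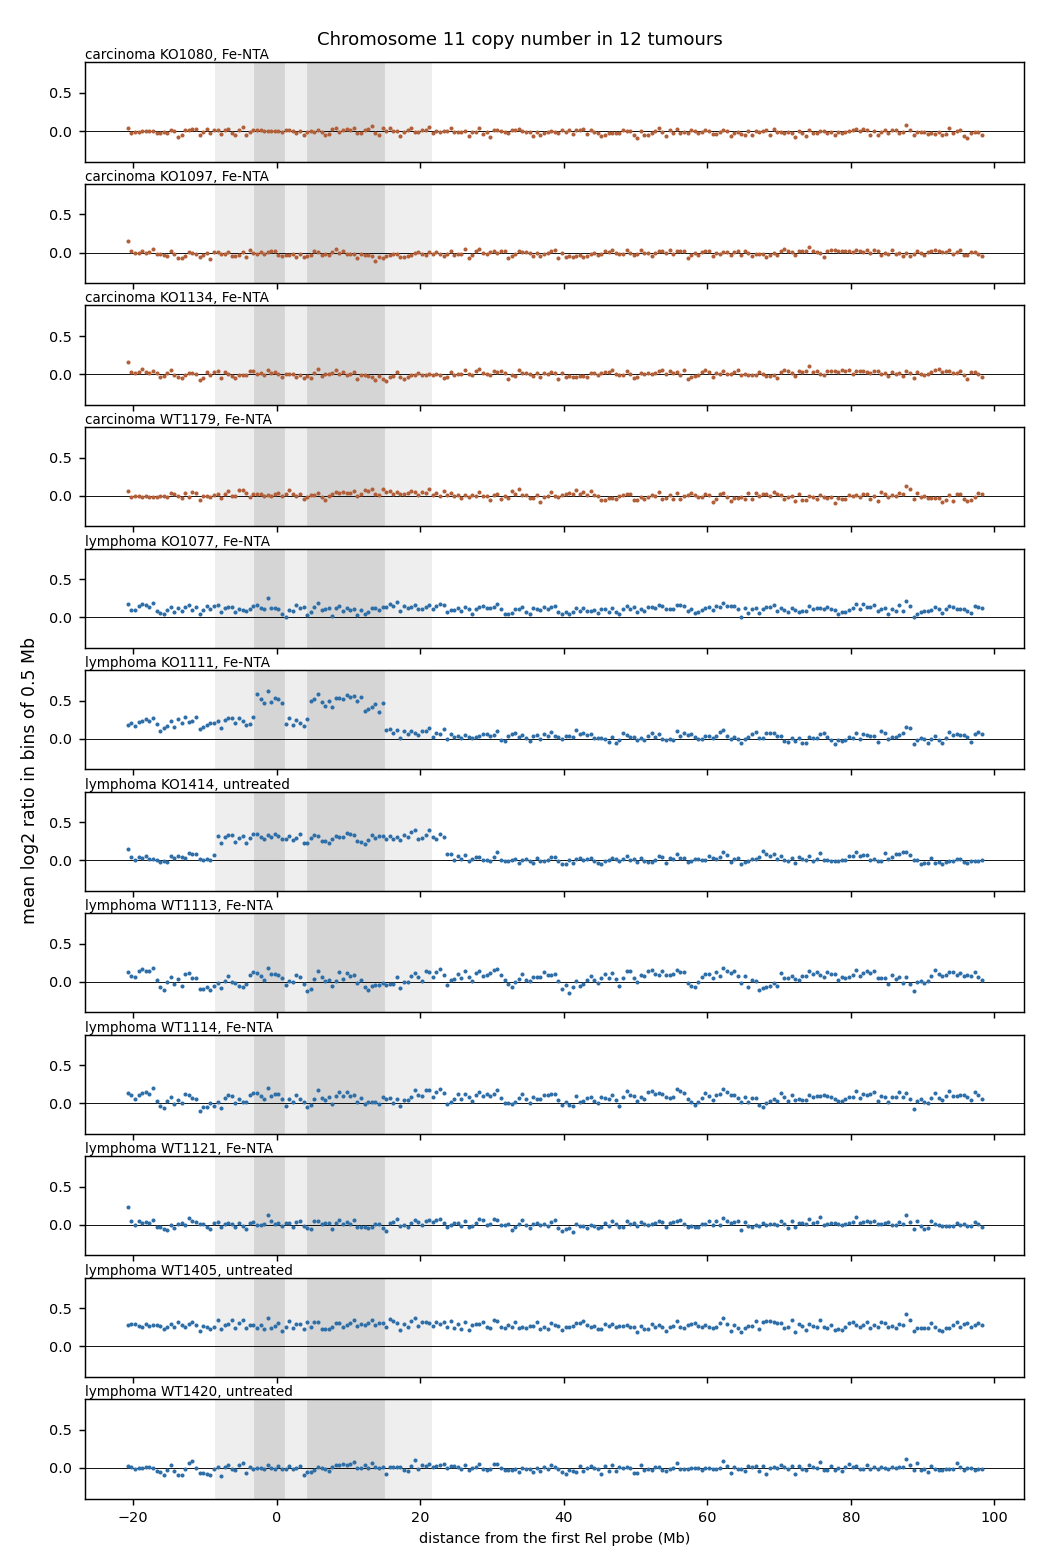
Mean log2 ratio in bins of 0.5 Mb (points) along chromosome 11 in each of 12 tumours, against the distance from the first Rel probe in Mb, with the interval in light grey and its 2 pieces in darker grey. KO1111 stands at 2 levels above 0, KO1414 at 1 level across and past the interval, and WT1405 at 1 level over the whole chromosome, while the 4 carcinomas stay near 0.

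KO1111, a lymphoma of a treated knockout, had a gain nested in a lower one. Its first 1037 probes, from the start of the probed sequence to 20603146, stood at 0.22 ± 0.19 (SD over probes), which is an excess of 16.3% over the reference DNA and under the limit for a call. The proximal piece, from 20612335 to 24595414, stood at 0.52 ± 0.22 over 276 probes, an excess of 43.7%. Between the pieces the level was 0.21 over 180 probes, close to the level before them. The distal piece, from 27956982 to 38580041, stood at 0.49 ± 0.22 over 744 probes, an excess of 40.8%. From 38608271 to the end of the chromosome, 6757 probes stood at 0.030.

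The level of KO1111 thus moved in 4 steps. It rose by 0.30 at the start of the proximal piece, fell by 0.31 at its end and rose by 0.28 at the start of the distal piece. At the last step it fell by 0.46, where the distal piece and the lower gain ended at the same probe pair. With the limit for a call at 0.15, the lower gain was called too, and gains in KO1111 then covered 35.5 Mb, against 14.6 Mb at 0.25. At that limit 24.9% of its chromosome 11 probes were gained, against 14.2% of all its autosomal probes. In the same tumour, chromosomes 16 and 15 averaged 0.22 each, the level of the lower gain.

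The limits were placed on these same values, so the 50 probes on either side of each had to differ and are given as description. At the last limit they differed by less than the segments did. At the start of the proximal piece they averaged 0.57 ± 0.22 inside and 0.25 ± 0.20 outside (SD over probes), and at its end 0.51 ± 0.23 inside and 0.23 ± 0.19 outside. At the start of the distal piece they averaged 0.50 ± 0.17 inside and 0.17 ± 0.18 outside, and at its end 0.43 ± 0.19 inside and 0.10 ± 0.20 outside. The gaps between the facing probes were 9188, 19331, 41086 and 28229 bases in chromosome order, and no limit is known more finely than its gap. A limit can also lie outside its gap: with the normexp setting described below, the distal piece ended at 38487188. After the distal piece KO1111 did not drop to 0 at once: the 345 probes up to 45.1 Mb averaged 0.085 and those beyond 0.027. No step was found between these stretches.

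KO1414, a lymphoma of an untreated knockout, carried 1 wider and flatter gain. From 15233901 to 45091892 its 1803 probes stood at 0.30, an excess of 23.2%, against 0.036 before the gain. From 45147056 to 47179016 another 166 probes stood at 0.31, and after them the chromosome read 0.015. The 2 stretches were divided by the single probe at 45125913, which read 2.01 in KO1414. That probe was high on all 12 arrays, with 0.72 at the lowest. With single probes far from their neighbours left out, a choice made after seeing the data, KO1414 had 1 gain from 15233901 to 47179016, of 31.9 Mb and 1957 probes at 0.30. The upper limit of 45.1 Mb in the choice of the interval therefore reflects that probe, and the rest of the chromosome as defined here holds a further 2.03 Mb of the same gain.

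Within KO1414 the stretches that differ in KO1111 did not stand apart. Its means were 0.31 before the proximal piece, 0.31 in it, 0.28 between the pieces, 0.29 in the distal piece and 0.32 after it. At the limit of 0.25 the gains of KO1111 lay wholly inside those of KO1414, though its lower gain, at the start of the chromosome, did not. The 1020 shared probes were 100% of the gained probes of KO1111 and 51.8% of those of KO1414. The end of KO1414's gain had the smallest gap of these limits, with 6941 bases between the facing Sgcd probes. Its start was placed in a gap of 37318 bases, but at 15144878, outside that gap, with the normexp setting. The inside Sgcd probe read above the outside one in every tumour, with 0.20 and -0.17 in KO1080, which had no gain there.

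**Figure D2:**
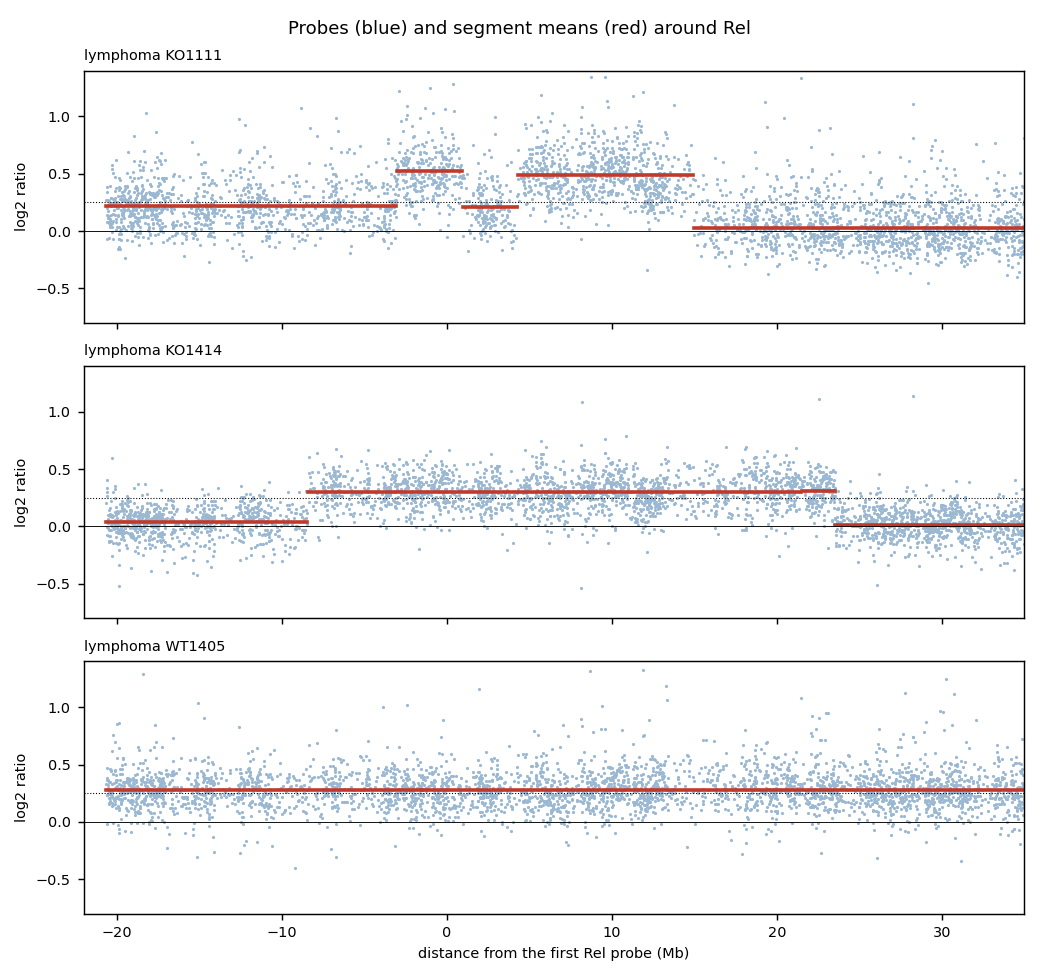
Log2 ratio of single probes (blue points) and means of segments of more than 1 probe (red lines) within about 35 Mb of Rel in the 3 lymphomas with gains, against the distance from the first Rel probe in Mb; the dotted line is the limit for a call, 0.25. KO1111 shows 2 high pieces at 0.52 and 0.49 on a lower gain at 0.22 and 0.21, KO1414 an even level near 0.30, and WT1405 no step.

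WT1405, a lymphoma of an untreated wild type, was gained over the whole chromosome. Its 2 segments of more than 1 probe stood at 0.28 and 0.27, divided by a single Ehbp1 probe at 22148743 that read 2.36. That probe also read 2.02 in WT1121 and 1.65 in WT1420, which had no called gain on chromosome 11. It read 0.068 in KO1414, the lowest of the lymphomas, and -0.057 to 0.43 in the carcinomas. The interval averaged 0.29 and the rest 0.27 in WT1405. Chromosome 11 was not singular there: chromosome 6 averaged 0.52, chromosome 15 averaged 0.29, and 6 other autosomes in all stood at 0.20 or above. The call in WT1405 depends on where 0 is set, and with arrays centred on the median of the autosomes it had no gain on chromosome 11.

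KO1077, a lymphoma of a treated knockout, was raised over the whole chromosome without reaching the limit for a call. Its interval averaged 0.12 and its rest 0.11, in a single segment. Chromosome 11 was the highest of its 19 autosomes, followed by chromosome 15 at 0.066. It holds no step between the interval and the rest. Of the other tumours, WT1114 read 0.078 in the interval and 0.081 in the rest, and WT1113 read 0.038 and 0.068, with 6 segments along the chromosome between -0.054 and 0.13. WT1121 read 0.015 and 0.015, and WT1420 read 0.0091 and -0.0026. The carcinomas lay near 0 in both. KO1080 read 0.0058 in the interval and -0.013 in the rest, and KO1097 read -0.016 and -0.00056. KO1134 read -0.0035 and 0.013, and WT1179 read 0.028 and -0.0071.

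**Figure D3:**
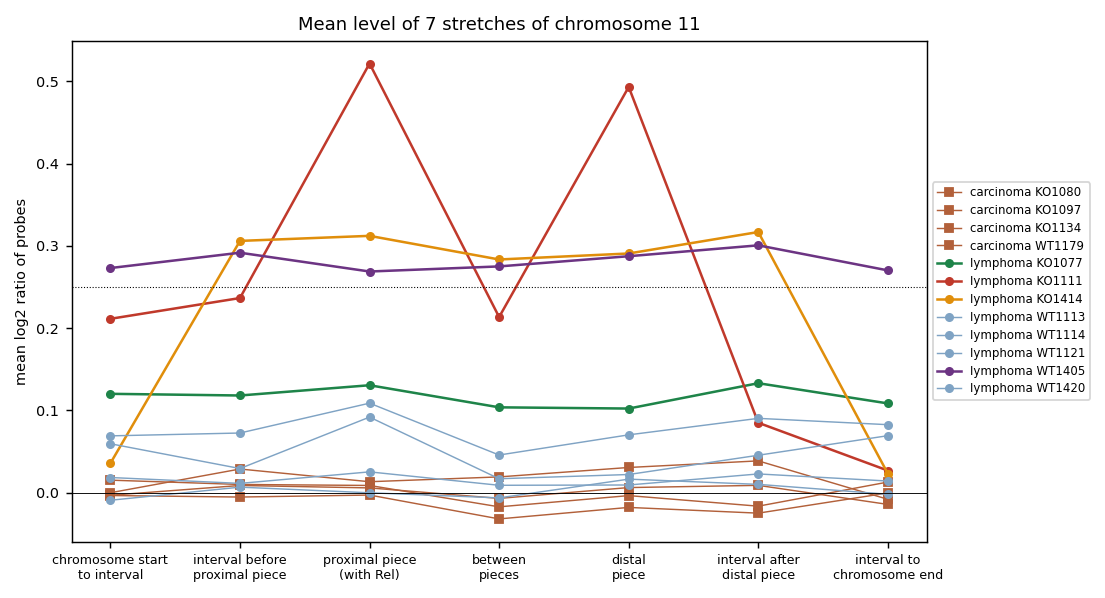
Mean log2 ratio of all probes in 7 stretches of chromosome 11 in each tumour (carcinomas as squares, lymphomas as circles), with the limit for a call dotted at 0.25. KO1111 peaks in the 2 pieces, KO1414 is raised from the start of the interval to its end, WT1405 and KO1077 are level at about 0.27 and 0.11, and the other 8 tumours lie at 0.11 or below in all stretches.

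The gains carry genes that act in lymphocytes. KO1111's proximal piece held 35 gene names of the array, 23 of them gene symbols, from 1110067D22Rik to ENSMUST00000123592, and its distal piece held 65, with 44 symbols, from Ccdc85a to ENSMUST00000133599. The gain of KO1414 held 163 names from Vstm2a to ENSMUST00000146372, and 24 more, up to Timd4, in its last stretch. Among genes with at least 2 probes, all 22 in the proximal piece and all 42 in the distal piece averaged at least 0.25 in KO1111, against 8.93% of all autosomal genes of that tumour. In KO1414 21 of 22 and 31 of 42 did so, against 1.90%, and in WT1405 16 of 22 and 28 of 42, against 23.1%. For KO1111 and KO1414 these counts restate the choice of the interval. In KO1077, which had no part in that choice, 2 of 22 and 4 of 42 reached 0.25, against 2.46%. Outside the interval 6 of 68 genes before it and 47 of 685 after it did so in KO1077. In WT1405 these counts were 47 of 68 and 397 of 685. The pieces thus did not stand apart from their chromosome in either tumour.

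Rel had the log2 ratios 0.35 in KO1111, 0.37 in KO1414 and 0.29 in WT1405, each the mean of 3 probes. The other 9 tumours ran from -0.070 to 0.093, with a median of -0.0089. Those 3 tumours were the ones with a gain called over Rel, so their distance from the other 9 restates the calls. The same holds where genes of the pieces are set against the other 9 below. The 3 probes disagreed in KO1111. Those at 23654748 and 23668716 read 0.58 and 0.54, the level of the proximal piece, while the one at 23648638 read -0.053. That probe read 0.23 in KO1414 and 0.29 in WT1405, and between -0.25 and 0.19 in the other 9 tumours. The tumours that shared a slide with KO1111 read lower than KO1111 at that probe, with -0.23 in KO1077, -0.21 in WT1113 and -0.25 in WT1114. Rel was therefore lower than most neighbours in KO1111 through 1 probe, and no segment limit lay there.

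Genes on either side of Rel were gained too, and scattered around the level of the proximal piece. Xpo1, the nuclear export receptor for many proteins, read 0.47 in KO1111, 0.30 in KO1414 and 0.31 in WT1405 over 4 probes. Bcl11a, a zinc finger transcription factor needed for lymphoid development, read 0.69, 0.27 and 0.41 in the same order over 8 probes. Its probes were uneven: the one at 24044121 read 1.28 in KO1111 and 1.74 in WT1405, but also 1.12 in WT1420, which had no gain, and the one at 23978729 read 0.44 to 0.66 in the 4 carcinomas. Papolg, a poly(A) polymerase next to Rel, read 0.63 in KO1111, 0.53 in KO1414 and 0.40 in WT1405, and the other 9 tumours reached 0.20. Pex13, which acts in import into peroxisomes, had the highest mean of the listed genes in the piece for KO1111, at 0.76. Its 3 probes read 0.38, 0.82 and 1.07 there. It read 0.25 in KO1414 and 0.11 in WT1405, but also 0.28 in KO1077, 0.22 in WT1113 and 0.25 in WT1114, which had no called gain on chromosome 11.

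Further genes of the proximal piece also act in signalling. Peli1, an E3 ubiquitin ligase of receptor signalling in immune cells, read 0.60 in KO1111, 0.41 in KO1414 and 0.32 in WT1405. Usp34, a deubiquitinase, read 0.54, 0.36 and 0.27 in that order over 17 probes, and Commd1, which acts in copper balance and in curbing NF-kB, read 0.47, 0.31 and 0.26. For these 3 genes the other 9 tumours did not exceed 0.20. Over the 18 listed genes of the proximal piece the median was 0.58 in KO1111 (0.33 to 0.76), 0.32 in KO1414 (0.045 to 0.53) and 0.28 in WT1405 (0.059 to 0.48). The median over all autosomal genes with at least 2 probes was 0.055 in KO1111, -0.0082 in KO1414 and 0.061 in WT1405. The 6 listed genes just before the piece, with Meis1, a homeobox partner of Hox proteins, had a median of 0.26 in KO1111 and 0.35 in KO1414. Between the pieces, Fancl, an E3 ligase of the Fanconi DNA repair pathway, and Vrk2, a protein kinase, read 0.24 and 0.25 in KO1111, and 0.27 and 0.34 in KO1414.

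The distal piece holds genes of lymphocyte signalling and movement. Dock2, an activator of Rac that lymphocytes need for migration, read 0.54 in KO1111, 0.34 in KO1414 and 0.34 in WT1405 over 41 probes, and the other 9 tumours ran from -0.0034 to 0.11. Lcp2, which encodes the T cell receptor adaptor SLP-76, read 0.61 in KO1111, 0.39 in KO1414 and 0.34 in WT1405. Stk10, a kinase of lymphocytes, read 0.54, 0.28 and 0.26 in that order, and Fbxw11, an F-box protein of a ubiquitin ligase, 0.60, 0.36 and 0.31. Npm1, a nucleolar protein, was read by a single probe, at 0.47 in KO1111, 0.29 in KO1414 and 0.25 in WT1405. Over the 16 genes of the distal list within the piece, the median was 0.54 in KO1111 (0.37 to 0.72) and 0.29 in KO1414 (0.15 to 0.49). Tenm2, under its older name Odz2 and with 90 probes, was the lowest of these in KO1111 at 0.37, against 0.54 for Slit3, a guidance ligand with 55 probes. In WT1113, with no called gain on chromosome 11, they read -0.098 and 0.0069, but in WT1405 0.30 and 0.27. With a lower segmentation penalty (factor 5), KO1111's distal piece was divided between 35701855 and 35708300, into 0.52 over 578 probes and 0.39 over 166. WT1113 had a segment limit at the same probes, from 0.038 to -0.050. The cause was not tested.

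Past the distal piece KO1111 and KO1414 parted. Ebf1, a transcription factor that commits cells to the B lineage, read 0.089 in KO1111, 0.33 in KO1414 and 0.29 in WT1405 over 36 probes, with the other 9 tumours between -0.033 and 0.13. Over the 10 listed genes there the median was 0.092 in KO1111 and 0.33 in KO1414. The GABA receptor gene Gabrb2, with 22 probes, read 0.12 in KO1111 and 0.41 in KO1414. Havcr2, an inhibitory receptor of T cells, lies beyond 45.1 Mb and still read 0.34 in KO1414, against -0.0018 in KO1111. Of the 32 listed genes around the proximal piece all were on the array, of the 34 around the distal piece 27.

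**Figure D4:**
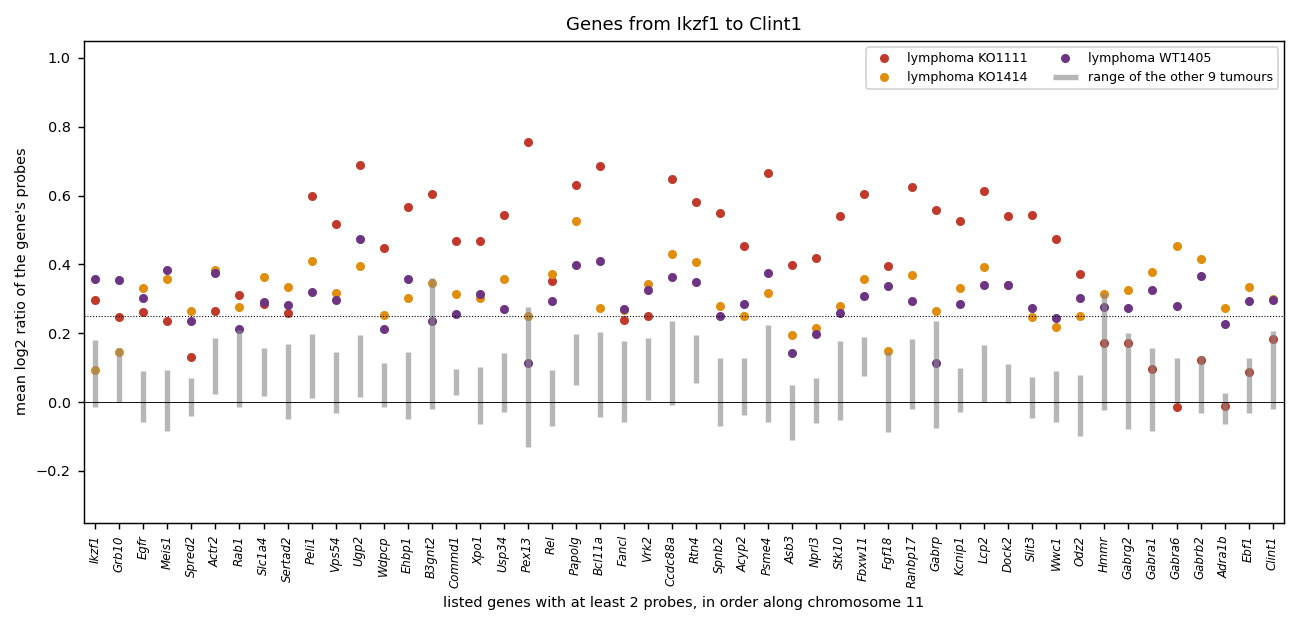
Mean log2 ratio of the probes of each listed gene with at least 2 probes from Ikzf1 to Clint1, in chromosome order, in the 3 lymphomas with gains (points) and as the range over the other 9 tumours (grey bars), with the limit for a call dotted at 0.25. KO1111 lies above KO1414 and WT1405 in most genes of the 2 pieces, such as Bcl11a at 0.69, and below them past the distal piece, such as Ebf1 at 0.089.

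Genes of blood cells and cancer elsewhere on the chromosome lay outside the pieces. Ikzf1, the Ikaros transcription factor of lymphoid development, lies before the interval and read 0.30 in KO1111, 0.094 in KO1414 and 0.36 in WT1405. Egfr, a growth factor receptor within the interval before the proximal piece, read 0.26 in KO1111, 0.33 in KO1414 and 0.30 in WT1405. Of the 40 listed genes 38 were on the array, and 35 of them lie beyond the interval. Those 35 had a median of -0.0016 in KO1111, 0.067 in KO1414 and 0.26 in WT1405. Trp53, the p53 tumour suppressor, read 0.17 in KO1111, 0.17 in KO1414 and 0.41 in WT1405 over 2 probes, with 0.032 to 0.37 in the other 9 tumours, so it stood above its surroundings in tumours with and without a gain.

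The rest of chromosome 11 was compared between groups, with and without KO1111 and KO1414. The rest is not wholly independent of the choice of the interval, since it holds part of KO1414's gain and of KO1111's lower gain. The 4 carcinomas averaged -0.0018 ± 0.011 (SD, n = 4) and the 5 treated lymphomas 0.064 ± 0.036 (SD, n = 5), a difference of -0.066. All 4 carcinomas lay below all 5 treated lymphomas, but narrowly, with carcinoma KO1134 at 0.0133 and lymphoma WT1121 at 0.0147. In an exact permutation test, two-sided like the others, this order gave p = 0.0159, the smallest these 126 splits allow. Adjusted by Benjamini-Hochberg over 4 tests it was 0.0635 and missed the threshold. Without KO1111 the difference was -0.070, with an exact p of 0.0286 and an adjusted p of 0.114. With arrays centred on the median of their autosomes it was -0.0058. Slide 1 held all carcinomas, and a value within a slide could not be had.

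**Figure D5:**
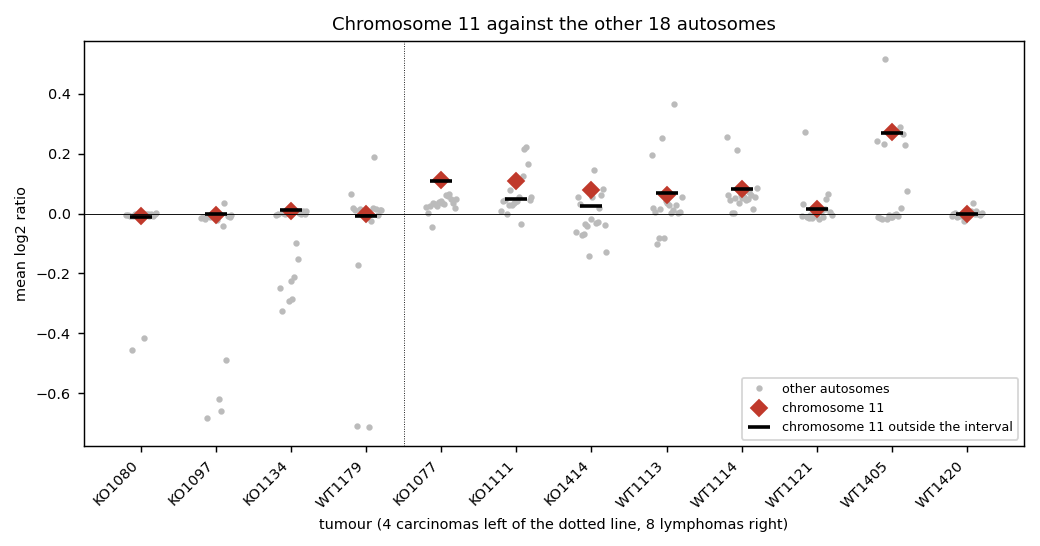
Mean log2 ratio of chromosome 11 (red diamonds), of its part outside the interval (black bars) and of each other autosome (grey points) in each tumour, carcinomas left and lymphomas right of the dotted line. Chromosome 11 outside the interval lies between -0.013 and 0.013 in the carcinomas and reaches 0.27 in WT1405, where other autosomes are raised too.

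Genotype was compared over the same probes, with labels permuted within tumour type. The 6 knockout tumours averaged 0.030 ± 0.044 (SD, n = 6) and the 6 wild types 0.071 ± 0.10 (SD, n = 6), a difference of -0.017 weighted over both tumour types. Over 224 splits the exact permutation p was 0.844, and the adjusted p 0.844. Without KO1111 and KO1414 the difference was 0.016 (exact p = 0.625, adjusted 0.667). Within slide 2, all treated lymphomas, the 2 knockouts averaged 0.078 ± 0.044 and the 2 wild types 0.075 ± 0.0092 (SD). Within slide 3 the knockout read 0.025 and the 3 wild types averaged 0.094 ± 0.15. Within slide 1 the 3 knockouts averaged -0.000070 ± 0.013 and the wild type read -0.0071.

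Treatment was compared among the lymphomas. The 5 treated lymphomas averaged 0.064 ± 0.036 (SD, n = 5) and the 3 untreated ones 0.098 ± 0.15 (SD, n = 3) in the rest of the chromosome, a difference of -0.033 with an exact permutation p of 0.75 over 56 splits and an adjusted p of 0.844. Without KO1111 and KO1414 the difference was -0.065, with an exact p of 0.6 and an adjusted p of 0.667, and without WT1405 it was 0.053. Within slide 3, the only slide with both, the treated lymphoma read 0.015 and the 3 untreated ones averaged 0.098 ± 0.15.

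Interval and rest were set against each other in the 10 tumours not used to choose the interval. The interval minus the rest averaged 0.0053 ± 0.026 in the 4 carcinomas and -0.00016 ± 0.016 in the 6 other lymphomas (SD), a difference of 0.0055 with an exact permutation p of 0.667 over 210 splits and an adjusted p of 0.844. Over the 10 tumours the difference between interval and rest ran from -0.030 in WT1113 to 0.035 in WT1179. In KO1111 and KO1414 it was 0.31 and 0.28.

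Gene by gene, chromosome 11 was tested with limma in a model of tumour type, genotype and treatment over 20281 autosomal genes and 12 tumours. Between carcinomas and lymphomas 13.6% of all autosomal genes were called at an adjusted p under 0.05, 0.873% higher and 12.7% lower in the carcinomas. On chromosome 11 outside the interval, of 1367 genes, 15 were higher and 28 lower in carcinomas, together a smaller share than over all autosomes. With 1 tumour left out, the count outside the interval ran from 17, without KO1077 (when 11.4% of all autosomal genes were called) or without KO1111 (10.6%), to 123 without WT1405 (14.6%). Without KO1111 and KO1414 it was 15. With arrays centred on the median the split outside the interval was 28 higher and 13 lower. In the interval, without KO1111 and KO1414, 0 of 163 genes were higher and 2 lower, when 10.2% of all autosomal genes were called. Genotype gave 0 calls on chromosome 11, against 0.0641% over all autosomes, with 8 genes outside the interval at an unadjusted p under 0.05, or 0.585%, against 5.10% of all autosomal genes. In the interval 29 genes had such a p, or 17.8%, and 1 without KO1111 and KO1414. Both of these tumours are knockouts and had served to choose the interval, so the 29 restate that choice. Treatment gave 0 calls, against 0.0% over all autosomes, with 156 genes outside the interval at an unadjusted p under 0.05, or 11.4%, close to the 10.5% of all autosomal genes.

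Among called genes with at least 2 probes, Shmt1, a cytosolic enzyme of serine and glycine metabolism, differed most, lower in carcinomas by -1.03 ± 0.088 (SE) with a limma adjusted p of 5.02e-05. One of its 2 probes, at 60609492, read -1.99 to -1.42 in the 4 carcinomas and -0.14 to 0.41 in the 8 lymphomas. The other, at 60620816, read -0.20 to -0.031 in carcinomas and -0.34 to 0.52 in lymphomas, which overlap, so the difference of the gene rests on 1 probe. Kdm6b, a histone demethylase, was lower by -0.46 ± 0.066 (SE) with a limma adjusted p of 0.000374. Gm525, the transcript ENSMUST00000141755 and Npc1l1, a transporter of sterols in the gut, were lower by -0.42, -0.41 and -0.38. Single probes of Azi1, Bahcc1, BC172760 and AK133080, picked out after their values were seen, were likewise lower in all 4 carcinomas than in any lymphoma. The Azi1 probe came closest, with -1.78 to -0.63 in carcinomas and -0.34 to 0.11 in lymphomas. The AK133080 probe read -1.91 to -1.46 in carcinomas and -0.18 to 0.24 in lymphomas. All carcinomas were on slide 1, and its part in these values was not tested.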

How the data were processed

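The deposited intensity columns hold, per the file headers, processed red and green signals of Agilent Feature Extraction 10.7.1.1, background-subtracted and dye-normalized. Per the file headers, the deposited log ratio is the log10 of red over green. The authors' series-wide table holds, by comparison with the deposited scanner values, the log2 of the same ratio, uncentred (column medians -0.020 to 0.025). Positions are in mm9, per the file headers.

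From the signals, log2 of red over green was taken, outlier spots were left out, spots of a probe were averaged, and each array was centred on the mode of its autosomal probes (kernel bandwidth 0.05). Segments came from penalised least squares (penalty factor 10), tested on simulated data. A gene's value is the mean of its probes. Of 1530 chromosome 11 gene names, 1160 are symbols or older symbols, and 2611 probes have no gene name. Levels of groups were compared with exact permutation tests, and genes with limma 3.58.1 in R 4.3.3. Tumour type was compared among treated tumours for levels, and in limma beside genotype and treatment. The genes named are the listed ones, those at the ends of the gains and up to 5 called genes per comparison. The members and lists were chosen with earlier results of these data known. The labels name the animals, and p-values measure the spread between these tumours. The number of arrays limits the precision. Alternatives were other centring, background correction, tables, filters, segmentation limits and leaving out tumours.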

Additional observations from a re-analysis of the deposited data

Results flagged for a closer look

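Of 6 groups checked for a tumour far from the rest, 2 held one, and chance gives about 1 such group in 20. The rest of chromosome 11 stood at 0.27 in WT1405, far above the other 7 lymphomas, of which KO1077 came nearest at 0.11. The interval minus the rest stood at 0.31 in KO1111, far above the other 4 treated lymphomas, which lay between -0.030 and 0.0051. The interval had been chosen on KO1111, so the second value restates that choice.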

How the results depend on the processing

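No paired analysis was possible because the animal numbers in the labels are not shared between groups. The setting with normexp background correction used mean signals, not dye-normalized, and was centred on the median, so it changed more than the background. With it the carcinomas and treated lymphomas differed in the rest of the chromosome by 0.00028, against -0.0058 with median centring alone. It called 30 genes of chromosome 11 by tumour type, against 52 in the main setting and 48 with median centring alone. The interval then stood above the rest by 0.39 in KO1111 and by 0.35 in KO1414. The median over probes gave 0.34 in KO1111. For genotype, the difference in the rest was 0.00080 with median centring and 0.016 without KO1111 and KO1414. With tumours left out one at a time it ran from -0.031 to 0.016, positive without WT1405. The difference by treatment then ran from -0.083 to 0.053, positive without WT1405, and the interval minus rest by tumour type from -0.0045 to 0.013, negative without WT1179 (-0.0045) or without WT1113 (-0.00054). None of these level tests passed at any setting. Genes called by tumour type numbered 17 without KO1111 and KO1414, 17 among genes with at least 2 probes, and 19 (without KO1111) to 135 (without WT1405) with one tumour left out. Without WT1121 they numbered 105 and without KO1080, KO1097, KO1134, KO1077, WT1113 or WT1114 25 to 30. At these settings 1.11% to 8.82% of the genes of chromosome 11 were called, against 10.2% to 16.2% of all autosomal genes. The 52 and the counts with one tumour left out draw on interval genes of KO1111 or KO1414, which had served for the choice of the interval. Treatment then gave 0 to 24 genes, 24 without WT1121 (1.57%, against 2.3% of all autosomal genes), and genotype 0 throughout. With the limit for a call at 0.4, 1 tumour had a gain, KO1111. The cause of these moves was not tested. With slide as a random block 69 genes differed by tumour type, or 4.51%, against 15.6% of all autosomal genes. A fixed slide term could not be fitted beside tumour type.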
